A study of Mus musculus with 6 samples.

Results

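The 7 genes described here encode receptors for the Fc part of antibodies, the signalling chain these receptors share, and an Fc receptor-like protein: Fcgr1, Fcgr3, Fcgr4, Fcer1g, Fcgr2b, Fcgrt and Fcrls. They were taken by symbol from a table of 38293 genes, and all 7 had a row and passed the filter on low counts, which left 14746 genes for testing. RNA-seq was performed on heart tissue of 6 young adult mice on a backcrossed C57BL/6J background, 14 days after permanent occlusion of the left anterior descending coronary artery (myocardial infarction, MI). The 3 control mice carried the floxed Zeb2 allele without Cre (Zeb2 fl/fl, called WT in the sample labels and below), and the 3 Zeb2 cKO mice carried the same floxed allele together with a Cre recombinase driven by the Myh6 (αMHC) promoter, which is active in cardiomyocytes. Both groups were infarcted, and sham-operated hearts were not analysed here. The labels place the tissue in the border region of the infarct, whereas according to the study's methods the RNA came from the remote zone. The deletion thus targets cardiomyocytes, while the RNA came from all cells of the tissue.

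Fcγ receptors bind the constant part of IgG and couple antibody-coated particles and immune complexes to phagocytosis and cytokine release, mainly in macrophages and other myeloid cells. The activating receptors signal through the Fc receptor γ chain, whose immunoreceptor tyrosine-based activation motif (ITAM) is phosphorylated by Src family kinases and then recruits Syk, whereas Fcgr2b carries an inhibitory motif (ITIM) that recruits the phosphatase SHIP-1, the product of Inpp5d. In the heart most of these genes are known from macrophages, and the neonatal receptor Fcgrt is also found in endothelial cells.

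The opposing motifs are shown because they define which receptor counts as activating and which as inhibitory. They were read from the principal coding transcripts of the Gencode M21 annotation of mouse build GRCm38, 5′ to 3′ on the coding strand, with the tyrosine codons in capitals.
Fcer1g ITAM, codons 65 to 79 of 86: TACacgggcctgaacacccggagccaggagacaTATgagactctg
Fcgr2b ITIM, codons 317 to 322 of 340: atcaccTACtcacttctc
Among the 7 coding sequences, the ITAM pattern (a tyrosine codon followed after 2 codons by leucine or isoleucine, and the same again after 6 to 8 codons) was found in Fcer1g alone. The ITIM pattern is short and also matched Fcgr1, Fcgr4, Fcer1g and Fcgrt, so a match to it is a description of the letters and not of a working motif.

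Total counts were between 37288174 and 51136331 per library, of which 14301225 to 19024394 lay outside the mitochondrially encoded genes. The unit of the levels is CPM (counts relative to the library size after TMM normalization), in the order of replicates 1, 2 and 3. The deleted gene, Zeb2, was at 61.3, 116 and 71.9 CPM in WT and at 59.55, 72.57 and 66.46 CPM in Zeb2 cKO hearts, so the groups overlapped (log2 fold change -0.33, and -0.0058 without WT replicate 2). WT replicate 2 stood apart from the other 5 libraries. The summed level of 15 macrophage markers was 1020 CPM in it against 259 to 360 CPM in the others, that of 7 fibroblast markers 8640 against 1470 to 1910 CPM, and that of 7 cardiomyocyte markers 10800 against 17400 to 21900 CPM. Fold changes and differences between the genotypes are therefore given with and without this library. In bulk tissue fewer cells of a type and less RNA per cell cannot be told apart.

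For 6 of the 7 genes, the sign of the difference between genotypes rested on WT replicate 2. With all 6 libraries, every one of the 7 had a negative log2 fold change (Zeb2 cKO over WT), from -0.13 for Fcgrt to -2.11 for Fcgr4. None passed an adjusted p of 0.05 in the quasi-likelihood F-test of edgeR with Benjamini-Hochberg correction (adjusted p = 0.957 for each of the 7), where 0% of all tested genes passed. At an unadjusted p under 0.05, 1 of the 7 lay below WT in Zeb2 cKO hearts (Fcgr4) and 0 lay above it, against 0.861% and 1.04% of all tested genes. DESeq2 likewise called none of the 7 after adjustment and 1 (Fcgr4) before it, where 1.09% of all genes with a p were lower at that threshold. The fold change lay under -0.2 for 6 of the 7 genes, compared with 22.6% of all tested genes. Without WT replicate 2, 1 of the 7 (Fcgr4) lay under -0.2, against 11.7% of all tested genes, and the other 6 had a fold change over 0, as had 50.9% of all tested genes. In that fit 0 of the 7 had an unadjusted p under 0.05, against 2.63% of all tested genes. In CPM, 0 of the 7 genes had groups without overlap, against 2.97% of all tested genes lower and 3.39% higher in Zeb2 cKO.

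**Figure D1:**
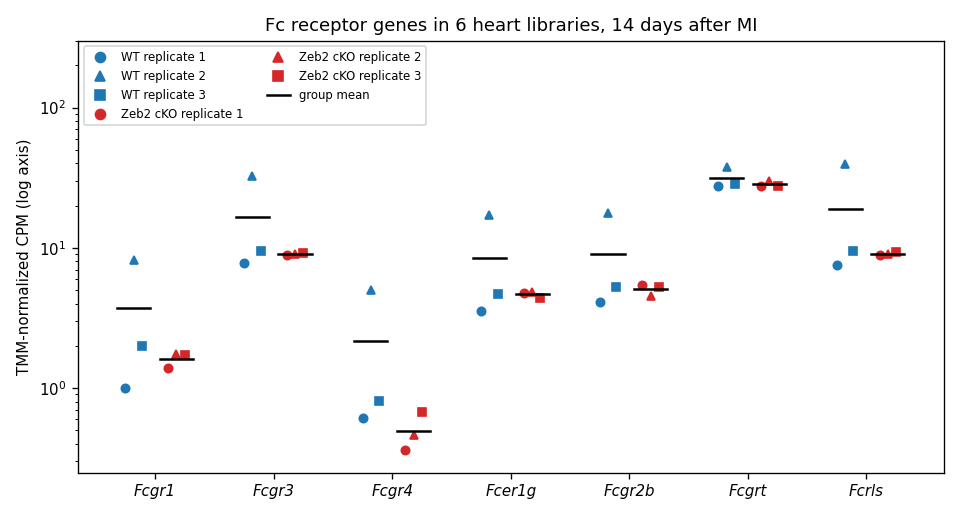
TMM-normalized CPM (log axis) of the 7 genes in each library, with blue symbols for WT, red symbols for Zeb2 cKO, a shape for each replicate number and a black bar for the group mean. WT replicate 2 (blue triangle) is the highest library for every gene, from 37.8 CPM against at most 30.1 CPM for Fcgrt to 5.04 CPM against at most 0.807 CPM for Fcgr4.

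Per kilobase of exon, the genes could be ordered by level in most libraries. Fcgrt was the most abundant, at 13.2 to 18.0 CPM per kilobase, and lay above Fcer1g (4.04 to 19.8) in 5 of 6 libraries. Fcer1g and Fcgr3 (4.47 to 18.8 CPM per kilobase) could not be separated, since each was the higher in 3 of 6 libraries. Both lay above Fcgr2b (0.711 to 3.06 CPM per kilobase), and Fcrls (3.21 to 16.99) fell between Fcgr3 and Fcgr2b in 6 of 6 libraries. Fcgr2b exceeded Fcgr4 (0.286 to 4.01) in 5 of 6 libraries, and Fcgr4 exceeded Fcgr1 in 2 of 6. The most abundant of the activating receptors was thus Fcgr3, and in all libraries but WT replicate 2 the least abundant members were Fcgr1 and Fcgr4. The exon length used was 5790 bases for Fcgr2b, whereas its transcript compared for shared sequence has 3544 bases. For Fcgr4 both lengths were 1256 bases. The place of Fcgr2b beside Fcgr4 and Fcgr1 in WT replicate 2 therefore depends on the length chosen.

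Fcgr4 (ENSMUSG00000059089, chr1:171018920-171029761, plus strand) encodes an activating receptor for IgG2a and IgG2b of monocytes, macrophages and neutrophils. Of the 7 genes it had the lowest counts, with 23, 221 and 31 reads in WT and 18, 20 and 36 reads in Zeb2 cKO hearts. This corresponded to 0.611, 5.04 and 0.807 CPM in WT (2.15 ± 2.50, mean ± SD, n = 3) and 0.360, 0.461 and 0.670 CPM in Zeb2 cKO (0.497 ± 0.158, SD, n = 3). WT replicate 2 was the highest library, and Zeb2 cKO replicate 3 lay between WT replicates 1 and 3, so that the groups overlapped. The log2 fold change was -2.11 (standard error 0.84, 95% interval -4.10 to -0.13, unadjusted p = 0.0402 and adjusted p = 0.957 with edgeR and Benjamini-Hochberg correction). The exact permutation test of its CPM gave a two-sided p of 0.2, where 0.1 is the smallest that 3 mice against 3 can give. Without WT replicate 2 the log2 fold change was -0.50 (95% interval -1.33 to 0.33, unadjusted p = 0.198 from edgeR).

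Fcgr1 (ENSMUSG00000015947, chr3:96282909-96293969, minus strand) encodes CD64, the high-affinity receptor for IgG. It was at 1.01, 8.25 and 1.98 CPM in WT (3.75 ± 3.93, SD, n = 3) and at 1.40, 1.75 and 1.71 CPM in Zeb2 cKO (1.62 ± 0.193, SD, n = 3). All 3 Zeb2 cKO libraries lay between WT replicates 1 and 3. The log2 fold change was -1.21 (standard error 0.71, 95% interval -2.90 to 0.47) and, without WT replicate 2, 0.12 (95% interval -0.59 to 0.83).

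Fcgr3 (ENSMUSG00000059498, chr1:171051174-171064935, minus strand) encodes CD16, a low-affinity activating receptor that binds immune complexes. Its level was 7.75, 32.6 and 9.56 CPM in WT (16.65 ± 13.87, SD, n = 3) and 8.93, 9.06 and 9.23 CPM in Zeb2 cKO (9.07 ± 0.15, SD, n = 3). The Zeb2 cKO hearts spanned a narrow range that lay inside that of WT replicates 1 and 3. The log2 fold change was -0.88 (standard error 0.52, 95% interval -2.12 to 0.37), and 0.071 without WT replicate 2 (95% interval -0.21 to 0.36).

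Fcer1g (ENSMUSG00000058715, chr1:171229572-171234365, minus strand) encodes the γ chain that carries the ITAM printed above and that the activating receptors need at the cell surface. It was at 3.53, 17.3 and 4.66 CPM in WT (8.49 ± 7.63, SD, n = 3) and at 4.78, 4.84 and 4.39 CPM in Zeb2 cKO (4.67 ± 0.242, SD, n = 3). Zeb2 cKO replicates 1 and 2 lay above WT replicates 1 and 3. The log2 fold change was -0.87 (standard error 0.57, 95% interval -2.22 to 0.49) and, without WT replicate 2, 0.19 (95% interval -0.18 to 0.56).

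Fcgr2b (ENSMUSG00000026656, chr1:170958617-170976547, minus strand), the inhibitory receptor of myeloid and B cells, was at 4.12, 17.7 and 5.29 CPM in WT (9.04 ± 7.54, SD, n = 3) and at 5.42, 4.54 and 5.27 CPM in Zeb2 cKO (5.07 ± 0.469, SD, n = 3). As with the activating receptors, WT replicate 2 was the highest library, and the other 5 lay between 4.12 and 5.42 CPM. The log2 fold change was -0.84 (standard error 0.53, 95% interval -2.09 to 0.42), and 0.11 without WT replicate 2 (95% interval -0.25 to 0.48). Fcgr2b and Fcgr3 share 512 aligned bases at an identity of 96.3%, so reads may have been split between them and both counts are uncertain. Fcgr4 aligned to either at an identity of 64.3 to 64.7%. Over at least 75 bases at 95% identity, 37.8% of the Fcgr3 transcript was shared, with Fcgr2b alone. For Fcgr2b the share was 24.2% of 3544 bases, with Fcgr3 and many other genes, among them Col1a2. Col1a2 was at 1465 CPM in WT replicate 2 and at 203 to 308 CPM in the others. Its part in the Fcgr2b counts was not tested. Gm38204, an antisense gene of Gencode M21, also overlaps a Fcgr2b exon, and the strand option of the counting is not given in the sources used here.

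Fcgrt (ENSMUSG00000003420, chr7:45092990-45103851, minus strand) encodes the heavy chain of the neonatal receptor FcRn, which binds IgG and albumin in endosomes and returns them to the cell surface. It differed least between libraries, with 27.7, 37.8 and 28.4 CPM in WT (31.3 ± 5.65, SD, n = 3) and 27.7, 30.1 and 27.8 CPM in Zeb2 cKO (28.55 ± 1.36, SD, n = 3). Its log2 fold change was -0.13 (standard error 0.15, 95% interval -0.49 to 0.22), and 0.029 without WT replicate 2 (95% interval -0.19 to 0.25). This was the narrowest interval of the 7 genes with all libraries.

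Fcrls (ENSMUSG00000015852, chr3:87250758-87263738, minus strand) encodes an Fc receptor-like scavenger receptor known from microglia and other resident macrophages. It was at 7.49, 39.65 and 9.53 CPM in WT (18.9 ± 18.0, SD, n = 3) and at 8.85, 8.96 and 9.38 CPM in Zeb2 cKO (9.07 ± 0.278, SD, n = 3). In WT replicate 2 it exceeded Fcgrt in CPM, whereas in the other 5 libraries it lay below it. The log2 fold change was -1.06 (standard error 0.61, 95% interval -2.50 to 0.38), and 0.095 without WT replicate 2 (95% interval -0.21 to 0.40). For the 6 genes other than Fcgr4, the unadjusted p from edgeR lay between 0.1245 and 0.406 (adjusted p = 0.957), and their exact two-sided permutation p lay between 0.7 and 0.9.

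**Figure D2:**
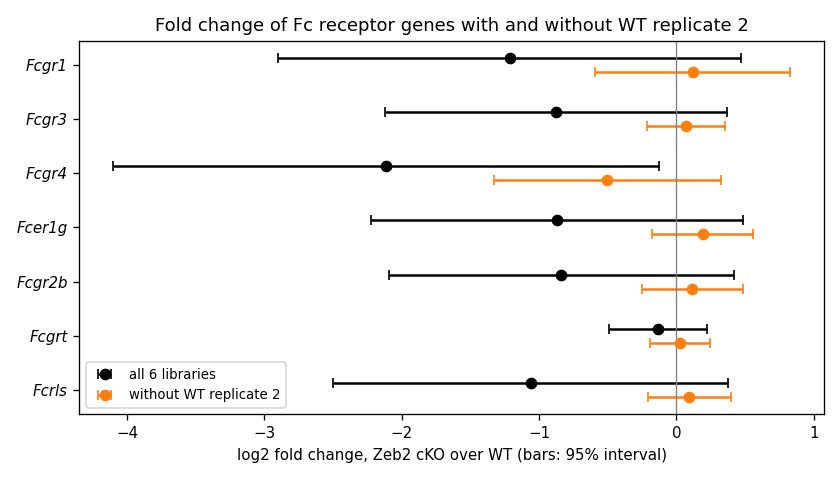
Log2 fold change (Zeb2 cKO over WT) of the 7 genes with 95% intervals, in black for all 6 libraries and in orange without WT replicate 2. With all libraries the interval of Fcgr4 alone lies below 0, at -4.10 to -0.13, and without WT replicate 2 the intervals of all 7 genes include 0.

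The genes differed in how far WT replicate 2 stood above the mean of the other 5 libraries. The ratio was 8.66 for Fcgr4, 5.25 for Fcgr1, 4.48 for Fcrls, 3.89 for Fcer1g, 3.66 for Fcgr3, 3.60 for Fcgr2b and 1.33 for Fcgrt. A ratio at least as high was found for 0.244% of all tested genes in the case of Fcgr4, for 2.48% in the case of Fcgr2b and for 24.1% in the case of Fcgrt. The macrophage markers, summed, had a ratio of 3.23 and the fibroblast markers one of 5.17. Among the other 5 libraries, the highest level was 2.24 times the lowest for Fcgr4, 1.96 times for Fcgr1 and between 1.09 and 1.37 times for the other 5 genes.

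Activating and inhibitory receptors were next compared within each library, as ratios of counts per kilobase to Fcgr2b, which do not depend on how libraries are normalized. The size of these ratios depends on the exon length used for Fcgr2b, whereas the log2 differences between genotypes for single genes do not. The sum of Fcgr1, Fcgr3 and Fcgr4 was 7.52, 8.49 and 7.57 times the level of Fcgr2b in WT and 6.39, 7.98 and 7.16 times in Zeb2 cKO hearts. On the log2 scale the ratio was 2.97 ± 0.099 in WT and 2.84 ± 0.16 in Zeb2 cKO (SD, n = 3 each), a difference of -0.13 with overlapping groups. The difference was -0.078 without WT replicate 2, -0.054 without Zeb2 cKO replicate 1 and -0.21 without Zeb2 cKO replicate 2. The sum is mostly Fcgr3, which was 6.03 to 6.28 times Fcgr2b in WT and 5.50 to 6.65 times in Zeb2 cKO. The summed ratio therefore varied little between libraries, including WT replicate 2. Because reads may have been split between Fcgr3 and Fcgr2b, it cannot show how steady the balance of activating and inhibitory transcripts was. The ratio of Fcer1g to Fcgr2b was likewise close, at 5.68 to 6.45 in WT and 5.52 to 7.06 in Zeb2 cKO, and that of Fcgr1 ranged from 0.548 to 1.04 in WT and from 0.578 to 0.863 in Zeb2 cKO. On the log2 scale the differences between genotypes were -0.040 for Fcgr3, 0.030 for Fcer1g and -0.13 for Fcgr1, and -0.041, 0.084 and 0.073 without WT replicate 2. Without Zeb2 cKO replicate 1 they were 0.020, 0.062 and 0.019, and without Zeb2 cKO replicate 2 they were -0.12, -0.075 and -0.27. Without WT replicate 1 they were -0.025, -0.0075 and -0.39.

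Fcgr4 was the exception among the activating receptors. Its ratio to Fcgr2b was 0.684, 1.31 and 0.704 in WT and 0.306, 0.468 and 0.586 in Zeb2 cKO hearts, so that every Zeb2 cKO library lay below every WT library. The difference was -0.97 on the log2 scale (WT -0.22 ± 0.53, Zeb2 cKO -1.19 ± 0.48, SD, n = 3 each). Without WT replicate 2 it was -0.66, and the groups still did not overlap. As background, 0.278% of all tested genes had a ratio to Fcgr2b that was lower in every Zeb2 cKO library with all libraries, and 7.96% had one without WT replicate 2. No test was made of this ratio.

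The reads behind the Fcgr4 ratio were few. Of the reads of Fcgr4 and Fcgr2b together, Fcgr4 made up 12.9% (95% Clopper-Pearson interval 8.37 to 18.8), 22.1% (19.6 to 24.8) and 13.2% (9.18 to 18.3) in WT. In Zeb2 cKO hearts its share was 6.23% (3.73 to 9.67), 9.22% (5.72 to 13.9) and 11.3% (8.03 to 15.3). These intervals cover counting error only. The interval of WT replicate 2 lay above those of all 5 other libraries, whereas the intervals of WT replicates 1 and 3 overlapped those of all 3 Zeb2 cKO hearts. Fcgr2b, the denominator, shares sequence with Fcgr3 and other genes as described above.

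**Figure D3:**
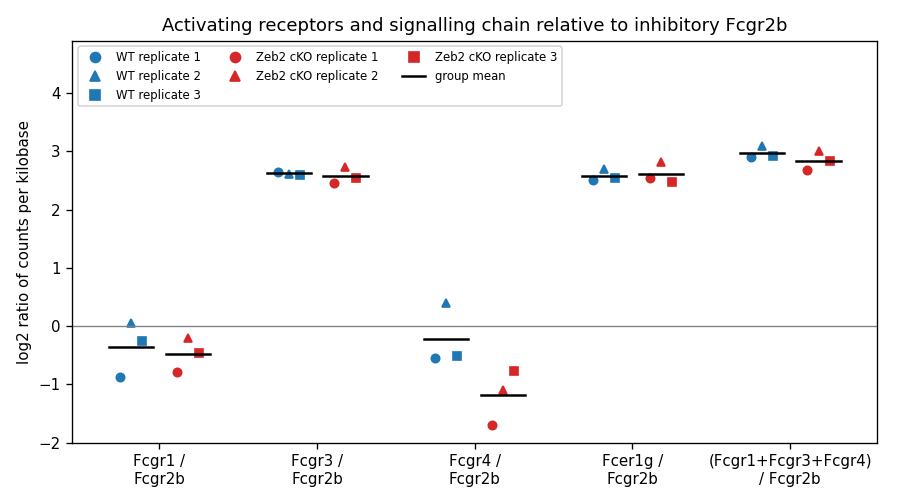
Log2 ratio of counts per kilobase to Fcgr2b for Fcgr1, Fcgr3, Fcgr4, Fcer1g and the sum of the 3 activating receptors in each library, with WT in blue, Zeb2 cKO in red, a shape for each replicate number and a black bar for the group mean. The ratio of Fcgr4 has a mean of -0.22 in WT and -1.19 in Zeb2 cKO without overlap, and the other ratios overlap.

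To set the receptors beside the macrophage content of each library, the mean log2 CPM of 15 macrophage markers was subtracted from the log2 CPM of each gene. Relative to these markers Fcgr3 stayed within a range of 0.27 over all 6 libraries, Fcgr2b within 0.34, Fcer1g within 0.39 and Fcrls within 0.56. Zeb2 cKO minus WT was -0.00026 for Fcgr3, 0.041 for Fcgr2b, 0.070 for Fcer1g and -0.077 for Fcrls, each with overlapping groups. Without WT replicate 2 these differences were 0.068, 0.11, 0.19 and 0.094, so that the sign turned for Fcgr3 and Fcrls. When Csf1r, Adgre1 and Cd68 were the only markers, with all libraries, they were -0.118, -0.077, -0.048 and -0.195. There the sign turned for Fcgr2b and Fcer1g. The macrophage markers thus moved with these 4 genes, and the part of macrophage content in their fold changes was not tested. Fcgr1 ranged more widely, over 1.05, with a difference of -0.089 that was 0.18 without WT replicate 2. It was -0.35 without WT replicate 1, and -0.21 with Csf1r, Adgre1 and Cd68 as the only markers.

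Fcgrt and Fcgr4 departed from the markers in different ways. Relative to the markers Fcgrt was at 1.42, -0.062 and 1.02 in WT and at 1.25, 1.28 and 1.18 in Zeb2 cKO hearts, so WT replicate 2 was the lowest library. The difference of 0.45 was 0.018 without that library and 0.76 without WT replicate 1. It was 0.33 with Csf1r, Adgre1 and Cd68 as the only markers. Relative Fcgr4 was at -3.98, -2.96 and -4.04 in WT and at -4.85, -4.62 and -4.11 in Zeb2 cKO, a difference of -0.86 without overlap, and of -0.51 without WT replicate 2, again without overlap. A level relative to the markers that was lower in every Zeb2 cKO library was found for 0.17% of all tested genes with all libraries and for 2.62% without WT replicate 2.

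**Figure D4:**
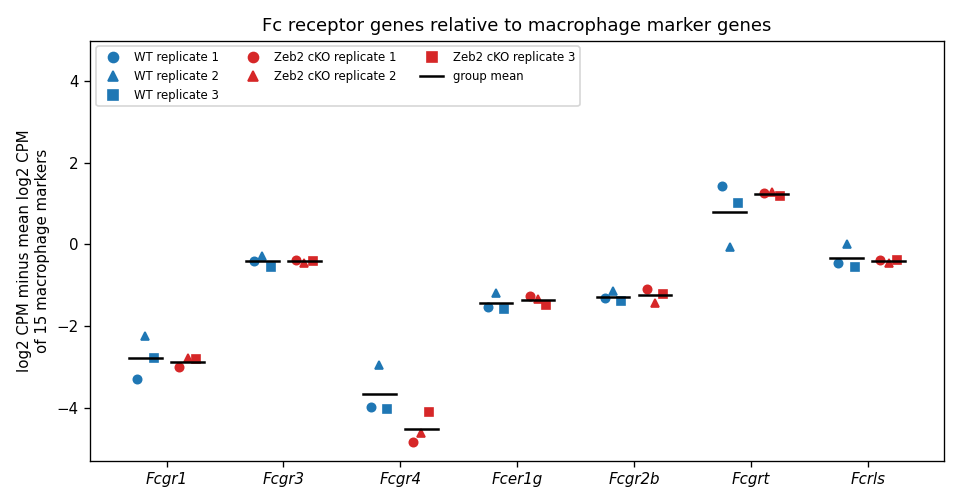
Log2 CPM of each gene minus the mean log2 CPM of 15 macrophage markers in each library, with WT in blue, Zeb2 cKO in red, a shape for each replicate number and a black bar for the group mean. Fcgr3 spans 0.27 over the 6 libraries, whereas Fcgr4 spans 1.89 and is lower in all Zeb2 cKO libraries.

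The start sites of the genes were examined for the core of the PU.1 binding motif, GAGGAA, since PU.1 is the myeloid factor known to act at Fcγ receptor promoters, and for the E-box CACCTG, which ZEB factors bind. Windows from 250 bases before to 50 bases after the start were taken from RefSeq (GRCm38.p6) and searched on both strands, and all 7 genes had one. GAGGAA or its complement was in 4 of the 7 windows, against 28.3% of 27025 windows of all genes. The 4 matches are shown with 25 bases on either side on the strand of the gene, with the match in capitals.
Fcgr1, chr3:96293994-96294049, minus strand: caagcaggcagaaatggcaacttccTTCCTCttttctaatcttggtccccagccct
Fcgr3, chr1:171059379-171059434, minus strand: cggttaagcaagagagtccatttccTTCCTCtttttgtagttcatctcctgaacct
Fcgr4, chr1:171018879-171018934, plus strand: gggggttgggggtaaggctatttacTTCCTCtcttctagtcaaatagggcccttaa
Fcrls, chr3:87263638-87263693, minus strand: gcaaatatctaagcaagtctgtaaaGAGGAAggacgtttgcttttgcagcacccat
In the 3 activating receptors the match was on the opposite strand, starting 55, 6 and 22 bases before the start for Fcgr1, Fcgr3 and Fcgr4. In Fcrls it was on the strand of the gene. The stretches of Fcgr3 and Fcrls lie inside the Gencode spans given above, which on this strand begin at 171064935 and 87263738. The RefSeq start used here thus differs from the outermost Gencode start for both genes. CACCTG was in 1 of the 7 windows, that of Fcrls, and in 20% of all windows. These matches describe letters in a window and were not tied to binding.

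The other genes of the Fc receptor family were near the limit of detection. None of 11 further genes, among them the IgE receptor genes Fcer1a and Ms4a2, the IgM receptor gene Fcmr and the polymeric immunoglobulin receptor gene Pigr, passed the filter on low counts. Fcer1a had 0 to 4 reads per library and Ms4a2, the β chain of the IgE receptor of mast cells, 0 to 1. The highest count was that of Fcrl1, a B cell gene singled out after its values were seen, with 4, 36 and 6 reads in WT and 3, 6 and 9 reads in Zeb2 cKO.

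Genes whose products share ligands or assembly with the Fc receptors were listed next. B2m, the light chain that FcRn needs, was at 83.4, 193.9 and 113.2 CPM in WT and at 77.7, 109.8 and 99.3 CPM in Zeb2 cKO (log2 fold change -0.45, standard error 0.32, and -0.037 without WT replicate 2). C1qa, C1qb and C1qc, which form the complement component that binds antibody Fc parts, had log2 fold changes of -0.76, -0.97 and -0.75 and between -0.039 and -0.023 without WT replicate 2. Trim21, the cytosolic Fc receptor, had 0.040, and 0.15 without WT replicate 2. Of these 5 genes, 0 passed the adjusted test or an unadjusted p under 0.05 with edgeR, and their median was -0.75 beside -0.0069 for all tested genes, and -0.024 beside 0.0026 without WT replicate 2.

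Antibody transcripts, from which the ligands of the receptors are made, were scarce apart from Ighm, which was about as abundant in CPM as Fcgr2b. Of 10 immunoglobulin constant and joining chain genes in the table, 5 passed the filter and 4 of these had a negative fold change. Their median was -0.97, beside -0.0069 for all tested genes, and 0.33 beside 0.0026 without WT replicate 2. In edgeR 0 of the 5 had an unadjusted p under 0.05, against 0.861% of all tested genes lower and 1.04% higher. Ighm, the heavy chain of IgM, was the most abundant at 5.02, 17.2 and 5.83 CPM in WT and 6.48, 8.41 and 5.58 CPM in Zeb2 cKO (log2 fold change -0.46, and 0.33 without WT replicate 2). Igha, the heavy chain of IgA, had 30, 235 and 18 reads in WT and 48, 6 and 37 reads in Zeb2 cKO, and Jchain, which joins IgA and IgM units, 10, 112 and 9 reads and 25, 26 and 12 reads. Their log2 fold changes were -1.88 and -1.23, and -0.063 and 0.80 without WT replicate 2. Ighg2c, an IgG heavy chain, had 6, 12 and 17 reads in WT and 1, 30 and 12 reads in Zeb2 cKO, so that WT replicate 2 was not the highest library for it. Igkc, the κ light chain, had 143 reads in WT replicate 2 and 20 to 45 in the other libraries.

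Downstream of the activating receptors, 31 of 32 listed ITAM signalling genes were tested. After adjustment 0 of 31 passed edgeR's test, 1 was lower at an unadjusted p under 0.05 (against 0.861% of all tested genes), 28 had a negative fold change and 24 lay under -0.2 (against 22.6% of all tested genes). Their median was -0.50, beside -0.0069 for all tested genes, and -0.0052 beside 0.0026 without WT replicate 2. The gene past the unadjusted threshold was Ncf4, a subunit of the phagocyte NADPH oxidase, at 1.06, 4.08 and 1.56 CPM in WT and 0.979, 1.08 and 0.893 CPM in Zeb2 cKO (log2 fold change -1.19, unadjusted p = 0.0474, adjusted p = 0.957 from edgeR, and -0.41 without WT replicate 2). The kinases that act first in the cascade had smaller fold changes, -0.29 for Lyn and -0.31 for Syk (standard errors 0.18 and 0.16), and Plcg2 and Gab2 had -0.33 and -0.37. These were -0.13, -0.24, -0.25 and -0.14 without WT replicate 2. Tyrobp, the adaptor DAP12 that also carries an ITAM, had -1.13 (standard error 0.60) and -0.0052 without WT replicate 2.

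On the inhibitory side, 15 of 16 listed genes had a row, 15 were tested and 0 passed the adjusted test or an unadjusted p under 0.05. At that unadjusted threshold 0.861% of all tested genes were lower and 1.04% higher. Of the 15 genes 12 had a negative fold change and 10 lay under -0.2, against 22.6% of all tested genes. Their median was -0.41, beside -0.0069 for all tested genes, and -0.014 beside 0.0026 without WT replicate 2. Inpp5d, which encodes the phosphatase recruited by the Fcgr2b ITIM, was at 11.8, 21.8 and 11.2 CPM in WT and at 9.69, 11.6 and 12.4 CPM in Zeb2 cKO (log2 fold change -0.41, standard error 0.27, and -0.026 without WT replicate 2). Ptpn6, the phosphatase SHP-1, had -0.73 (standard error 0.46), and the adaptors Dok1 and Dok3 had -1.19 and -0.87. Without WT replicate 2 these values were 0.020, -0.014 and -0.25. Dok2, an adaptor of the same family singled out after its values were seen, had 0.33 and, without WT replicate 2, 0.39. The groups overlapped in CPM for every tested gene of both signalling lists. Among all tested genes 2.97% were lower and 3.39% higher in Zeb2 cKO without overlap.

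**Figure D5:**
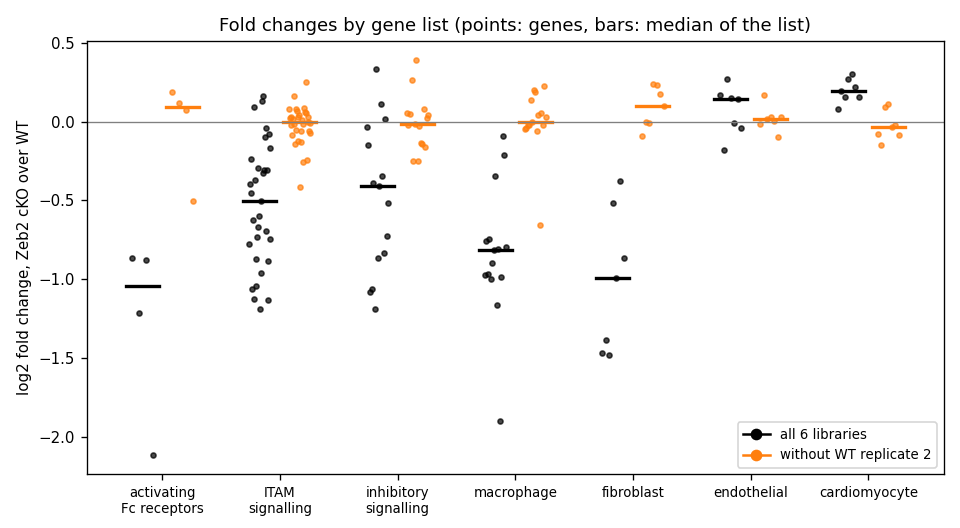
Log2 fold change (Zeb2 cKO over WT) of each tested gene in 7 lists, in black for all 6 libraries and in orange without WT replicate 2, with a bar at the median of each list. The medians are -1.05 for the activating Fc receptor genes, -0.50 for ITAM signalling, -0.41 for inhibitory signalling, -0.82 for macrophage markers and -0.99 for fibroblast markers with all libraries, and lie between -0.036 and 0.098 without WT replicate 2.

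Markers of the cells that could carry these receptors were set beside the receptors. All 15 macrophage markers were tested, all had a negative fold change (median -0.82, and 0.00071 without WT replicate 2), 0 passed the adjusted test and 1, Lgals3 (galectin-3), was lower at an unadjusted p under 0.05 in edgeR, against 0.861% of all tested genes. Lgals3 was at 2.39, 14.6 and 3.39 CPM in WT and at 1.96, 1.20 and 2.29 CPM in Zeb2 cKO, without overlap (log2 fold change -1.90, and -0.66 without WT replicate 2), as were 2.97% of all tested genes. Csf1r, the receptor for macrophage colony-stimulating factor, had -0.34, and Adgre1 (F4/80) and Cd68 had -0.98 and -0.82. They had 0.19, -0.048 and 0.20 without WT replicate 2. Neutrophil markers were low, at a summed 1.47 to 4.85 CPM, and 3 of 6 were tested, with a median fold change of -0.78, and of -0.89 without WT replicate 2. Among them S100a8 and S100a9 had -0.97 and -0.89 without that library and Csf3r 0.0078, beside -0.50 for Fcgr4, while Ly6g and Mpo had 0 or 1 read in each library. Also low were mast cell markers at 0.968 to 2.19 CPM, natural killer cell markers at 0.298 to 1.34 CPM and B cell markers at 0.799 to 2.69 CPM. Dendritic cell markers were at a summed 18.0 CPM in WT replicate 2 and at 14.8 to 18.7 CPM in the other libraries. Of the 2 tested, Itgax (CD11c) had 258 reads in WT replicate 2 and 34 to 54 in the other libraries. Zbtb46 went the other way, with 420 reads against 553 to 846. Endothelial markers, from cells that also use Fcgrt, were at a summed 419 CPM in WT replicate 2 and at 489 to 577 CPM in the others. The part of these cell types in the values of the receptors was not tested.

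The genes with profiles most like those of the receptors over the 6 libraries were found by the root mean square difference of centred log2 CPM. Fcgr3 was nearest to Crispld2 (0.024), Fcgr2b to Dse (0.050), Fcrls to Tyrobp (0.064), Fcer1g to Rgs10 (0.073) and Fcgr1 to Sema3d (0.077). Fcgr3 was also among the 3 genes nearest to Fcer1g (0.089). Fcgr4 had no neighbour as close, with Thbs1 at 0.154 and Kcnj15 at 0.191, and Fcgrt, which varied least, was nearest to Arhgap6 (0.012). These differences were not scaled to the log2 range of each profile, which was 3.65 for Fcgr4, 2.07 for Fcgr3 and 0.447 for Fcgrt. Among the libraries other than WT replicate 2, the highest level of Fcgr3 was only 1.23 times the lowest. A small difference thus mainly reflects a similar excess in WT replicate 2, and co-expression was not tested.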

How the data were processed

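Per gene, the raw counts were deposited by the authors in 1 table, made from stranded libraries of RNA without ribosomal RNA, with single-end reads of 75 bases aligned and counted on Gencode M4 (GRCm38) with the STAR workflow. The STAR version and the rule for multi-mapping reads are not given in the sources used here, and the submitters' processing notes name DESeq 1.2. Each column was matched to 1 sample by its description, with 0 columns unmatched. Symbols, exon lengths and coding sequences came from Gencode M21 (GRCm38), and promoter windows from RefSeq. The coding sequences were searched as codons.

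Counts were normalized with TMM and tested with glmQLFit and glmQLFTest in edgeR 4.0.16 (R 4.3.3) after filterByExpr with its defaults, with genotype as the factor and Benjamini-Hochberg adjustment over 14746 genes. The prior count was 0.125 for fold changes and 2 for log2 CPM. Near-identical sequence was searched with BLAST 2.17.0 over at least 75 bases at 95% identity. Single genes were also compared with exact two-sided permutation tests (scipy 1.17.1). The fit was tested on simulated data. Each library had 14301225 or more counts outside the mitochondrially encoded genes. Counting error weighs on genes of few reads, such as Fcgr4, Fcgr1 (38 to 92 reads outside WT replicate 2), Ighg2c, S100a8 and Dok3.

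The 7 genes and the gene lists were chosen with earlier results of these data known. Beside the 7 genes and Zeb2, the text names from each list the 3 tested genes of smallest unadjusted p, the proteins Lyn, Syk, Tyrobp, Inpp5d, Ptpn6, B2m, Trim21, Ighm, Igkc, Ighg2c, Csf1r, Adgre1 and Cd68, and the 3 genes nearest in profile to each receptor. Not all of them are printed. Alternatives were RLE normalization, no filter, DESeq2 1.42.0, a replicate block, no mitochondrially encoded genes, another marker set, another prior count, ratios without length, and leaving out each library. Replicate numbers 1, 2 and 3 occur in both groups, but the animals differ.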

Additional observations from a re-analysis of the deposited data

How the results depend on the processing

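Leaving out each library in turn gave log2 fold changes between -1.66 and 0.12 for Fcgr1, -1.22 and 0.071 for Fcgr3, -2.55 and -0.50 for Fcgr4, -1.23 and 0.19 for Fcer1g, -1.18 and 0.11 for Fcgr2b, -0.21 and 0.029 for Fcgrt and -1.44 and 0.095 for Fcrls. The sign turned for the 6 genes other than Fcgr4 without WT replicate 2 alone, and 0 of the 7 genes passed the adjusted test in any of these fits. Without WT replicate 1, 6 of the 7 had an unadjusted p under 0.05 in edgeR, as had 1134 of 15075 tested genes. Without WT replicate 3, 1 of the 7 had one. In the fits without each Zeb2 cKO library 0 of the 7 had one, with an unadjusted edgeR p for Fcgr4 of 0.0702 to 0.114. DESeq2 called 1 gene over the whole table, Slc46a2, and had 429 of 24089 genes at an unadjusted p under 0.05, where edgeR called 0 and had 280 of 14746. With the replicate number as a block, the log2 fold change of Fcgr4 was -1.52 and that of Fcgr1 -0.69, 0 genes were called and 247 had an unadjusted p under 0.05. Same-numbered samples had correlations of 0.088, -0.14 and -0.087, so the numbers did not pair the samples. The ratio of Fcgr4 to Fcgr2b differed by -1.18 to -0.66 when each library was left out, and by -0.97 without division by length. Among the 7 genes, counting error weighs most on Fcgr4, which had the fewest reads. The edgeR p-values set the difference between the groups against the spread between these samples, with 3 mice per group.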
